A study of Homo sapiens with 6 samples.

Results

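The S100 genes encode small calcium-binding proteins, and 10 of them, *S100A2*, *S100A3*, *S100A4*, *S100A6*, *S100A10*, *S100A11*, *S100A13*, *S100A14*, *S100A16* and *S100P*, were followed here in HGC27 gastric cancer cells that overexpress the 3′-UTR of *FN1*. They were chosen as named family members and not by a threshold on these values, but with earlier results of these data known. *S100A1* and *S100A5*, which were also tested, are not among them and are described separately below. The 10 genes are part of the 39739 gene rows in the deposited tables, and 9 of them were among the 23299 genes tested. *S100P* was left out of the test for its low reads. HGC27 is an established cell line from a gastric cancer. The HGC27-FN1 3′-UTR cells (n = 3 libraries) were infected with lentivirus carrying the *FN1* 3′-UTR and kept as stable puromycin-resistant cells, and the HGC27-control cells (n = 3 libraries) are labelled as the control of the same line, without their vector being described. Whether the stable cells are 1 clone or a mixed population, and which promoter drives the insert, is not given in the sources used here.

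S100 proteins fold around a pair of EF-hands, helix-loop-helix units of which most bind calcium. Most form dimers, and binding of calcium opens a surface that docks onto target proteins such as annexins and myosin. Some are also released from cells and act on the receptor RAGE, encoded by *AGER*. Most human S100 genes lie side by side on the long arm of chromosome 1, and changed expression of several of them has been described in gastrointestinal cancers.

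Expression was measured by strand-specific mRNA sequencing and given as RPKM, in which the reads of a gene are divided by its exon length in kilobases and scaled to 1000000 gene-assigned reads. The libraries held 16357085 to 37037532 assigned reads, for which 3 reads correspond to 0.081 to 0.183 per 1000000, a floor that covers counting error only. Nothing in the labels states that the 3 libraries of a group came from separate cultures, so the p-values measure only the spread between these libraries, which may be technical. *FN1* itself was listed at 0.516 ± 0.037 RPKM in control cells and 0.78 ± 0.037 RPKM in HGC27-FN1 3′-UTR cells (SD, n = 3 each), over exons that include its coding sequence. The markers of the cell line were mixed. *VIM*, a mesenchymal filament gene, stood at 303 RPKM in the control cells. Of the gastric epithelial markers described below, *TFF1* and *MUC5AC* were near the floor in every library. Others of that list, *KRT8*, *LYZ* and *CTSE*, were at 2.15, 0.185 and 0.0748 RPKM in control cells. In HGC27-FN1 3′-UTR cells these 3 genes were at 12.2, 4.06 and 2.46 RPKM. Summed endothelial markers did not exceed 0.0222 RPKM.

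In HGC27-FN1 3′-UTR cells, 8 of the 9 tested S100 genes were expressed at a higher level than in HGC27-control cells and 0 at a lower level, by limma with an adjusted p under 0.05. Over all tested genes, 5.62% were higher and 7.36% lower by the same test. The largest increases were those of *S100A6*, from 0.958 to 9.43 RPKM, and *S100A14*, from 0.116 to 0.976 RPKM. The abundant members *S100A10* and *S100A4* rose about 1.52-fold and 1.45-fold, and *S100A11*, the most abundant, rose 1.17-fold. *S100A13* was the tested member that did not pass, with an adjusted p of 0.0866 from limma. By unadjusted p under 0.05 all 9 were higher and 0 lower, against 12% and 17.6% of all genes, and limma's voom on the recovered reads called 8 higher and 0 lower, against 8.76% and 13.2% of all genes. The 3 HGC27-FN1 3′-UTR libraries lay above all 3 control libraries for each of the 9 tested genes, where 14.3% of all tested genes did so and 21.7% had all 3 below. At the criteria for differentially expressed genes (DEGs), an absolute log2 fold change above 1 with an unadjusted P under 0.05, 3 members were upregulated, *S100A3*, *S100A6* and *S100A14*, against 1.65% of all genes. With a pseudocount of 1, *S100A6* alone met these criteria. The median log2 fold change of the 9 was 0.67, against -0.04 over all tested genes.

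**Figure D1:**
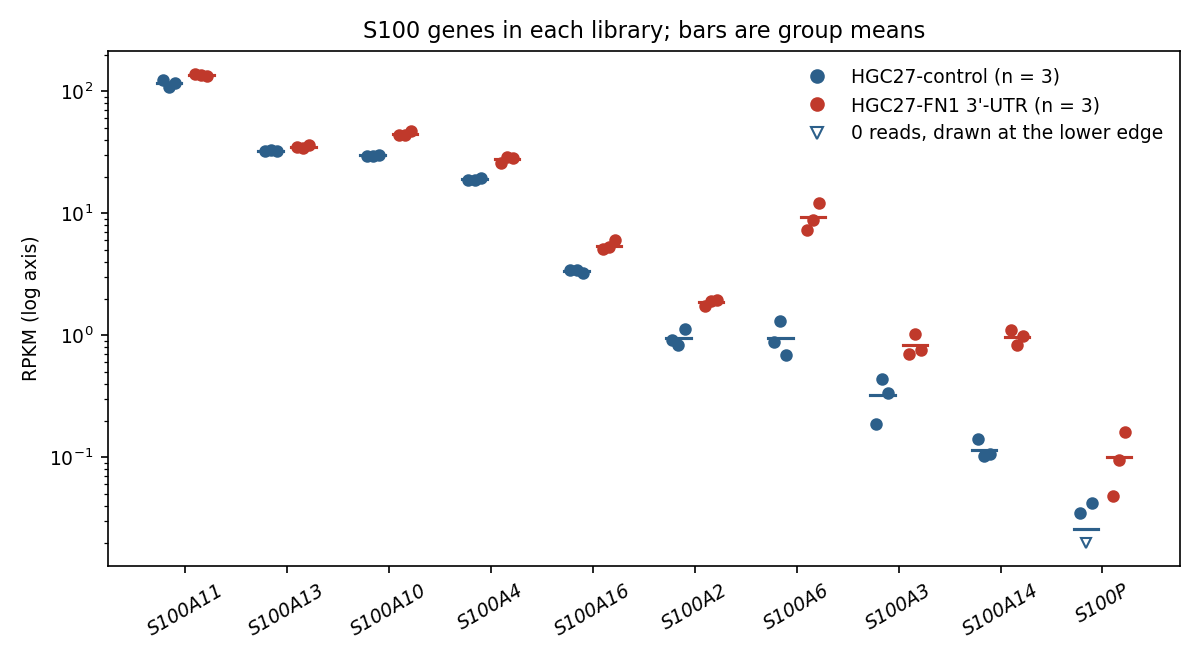
RPKM of the 10 S100 genes in each of the 6 libraries on a log axis, with horizontal bars at the group means (n = 3 each) and a triangle for the 1 library with 0 reads of S100P. The HGC27-FN1 3′-UTR points lie above the control points for every tested gene, with the widest gaps for S100A6 and S100A14 and the narrowest for S100A13.

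All 10 rows carry GRCh38 positions. On chromosome 1 and its reverse strand, 7 of the genes fall within 96.8 kb, in the order *S100A6* (153534599 to 153536244), *S100A4* (153543613 to 153550136), *S100A3* (153547329 to 153549372), *S100A2* (153561108 to 153567890), *S100A16* (153606886 to 153613145), *S100A14* (153614255 to 153616986) and *S100A13* (153618787 to 153631360). *S100A10* (151982915 to 151994390) and *S100A11* (152032506 to 152047907) are on the same strand, 38.1 kb apart, and 1486.7 kb separate *S100A11* from *S100A6*. *S100P* stands alone on the forward strand of chromosome 4, from 6693069 to 6697170. The genes are short, with 2 to 4 exons in the principal transcript of GENCODE release 29 and 90 to 105 codons, of which *S100A6* has the fewest and *S100A11* the most.

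The promoters of the genes were compared because members of 1 cluster differed in how far they moved. RefSeq windows on GRCh38.p14, from 250 bases before to 50 after each start, were found for all 10 genes, 14 windows in all. The letters TATAA stood 20 to 40 bases before the start, on the gene's own strand, in 5 of the 14 windows and in 3.91% of 35116 windows of all genes. This search was chosen after the sequences had been seen. The stretches are shown 5′ to 3′ on the strand of the gene, with TATAA in capitals, for *S100A6* at chr1:153536005-153536032, *S100A4* at chr1:153545821-153545848, *S100A14* at chr1:153616338-153616365 and *S100A13* at chr1:153627518-153627545, all on the reverse strand, and for *S100P* at chr4:6693839-6693866 on the forward strand.
S100A6: gcaccgaccgcTATAAggccagtcggac
S100A4: cctggctggggTATAAataggtcagacc
S100A14: cttcccccaggTATAAgagctgagctca
S100A13: tccccgctgctTATAAacctcagccctg
S100P: tgaggctgcctTATAAagcaccaagagg

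The match was held by *S100A6* and *S100A14*, which moved most, and by *S100A13*, which moved least, though not in every window of *S100A13*. Which start these cells use is not known here, and whether the match bears on the changes was not tested. Over whole windows and both strands, GGGCGG was in 6 of the 14 member windows, those of *S100A3*, *S100A6*, *S100A10*, *S100A11*, *S100A13* and *S100A16*, and in 45% of all windows. The *S100A6* window held it 90, 79 and 75 bases before the start. CACCTG was in 6 member windows and 20.6% of all, TGANTCA in 2 (*S100A2* and *S100A3*) and 7.71%, GGAATG in 2 (both of *S100A16*) and 14%, and TATAAA, which contains TATAA, in 3 (*S100A4*, *S100A13* and *S100P*) and 11.5%. The G and C content was 69.3% in the *S100A6* window and 62% in that of *S100A14*, beside a median of 58.7% over all windows. It was also above that median for *S100A10* (71.7%), *S100A11* (65.3%), *S100A4* (60.7%), and all windows of *S100A2* (60% and 61%) and *S100A13* (61.3% to 62.7%). The windows of *S100A3* (56.3%), *S100A16* (58.3%) and *S100P* (56%) were below it. These are matches of letters and do not show that a factor is bound.

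The S100 proteins known for binding annexins include those encoded by *S100A10* and *S100A11*. *S100A10*, also called p11, forms a heterotetramer with annexin A2 at the plasma membrane and does not itself bind calcium. Its level was 44.3, 44.3 and 47.0 RPKM in libraries of the HGC27-FN1 3′-UTR cells and 29.4, 29.8 and 30.3 RPKM in the control libraries. The gap between the groups was far wider than the spread within either. The log2 fold change was 0.60 (SE, the standard error, 0.034), the adjusted p from limma was 5.57e-04, and 4904 and 4161 reads stood behind the 2 groups.

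*S100A11*, a partner of annexin A1, was the most abundant member in both groups, at 138.5, 137.2 and 134.5 RPKM in the HGC27-FN1 3′-UTR cells and 123.9, 108.2 and 117.6 RPKM in control cells. The groups did not overlap, but the lowest and highest control libraries were further apart than the nearest libraries of the 2 groups. The log2 fold change was 0.23 (SE 0.051, limma adjusted p = 0.035). That call was lost when any library other than control replicate 1 was left out, with adjusted p from limma between 0.0686 and 0.105. A pair of processed pseudogene rows of this gene, *S100A11P1* and *S100A11P2*, held 1 and 6 reads over all libraries.

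*S100A4*, or metastasin, binds the heavy chain of nonmuscle myosin IIA and is known for its association with cell motility. It was at 25.95, 29 and 28.3 RPKM in the HGC27-FN1 3′-UTR cells and at 18.9, 18.9 and 19.5 RPKM in control cells. Every value of the first group exceeded every value of the second, and the log2 fold change was 0.54 (SE 0.047, limma adjusted p = 0.00237). *S100A3* lies within the deposited span of *S100A4*, but the exons of the genes share no base.

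*S100P*, which binds and activates ezrin, was close to the limit of detection. It had 1, 0 and 2 reads in the control libraries and 1, 3 and 6 in the HGC27-FN1 3′-UTR libraries, or at most 0.16 RPKM. With 10 reads against 3, the ratio of read rates was 4.3, with an exact 95% interval of 1.11 to 24.3 that covers counting error only. One HGC27-FN1 3′-UTR library shared the read count of a control library. By RPKM, which allows for depth, its 0.0478 lay just above the highest control value of 0.0422, on 1 and 2 reads. No test between groups was made.

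*S100A6*, or calcyclin, binds the calcyclin-binding protein encoded by *CACYBP* and is often raised in proliferating cells. It was at 7.37, 8.81 and 12.1 RPKM in the HGC27-FN1 3′-UTR cells and at 0.876, 1.30 and 0.695 RPKM in control cells, from 117, 209 and 343 reads against 19, 39 and 25. The lowest value of the first group was several-fold above the highest control value, while relative to their mean the libraries within a group also differed more than for the abundant members. The ratio of the means was 9.84, the log2 fold change 3.18 (95% confidence interval 2.565 to 3.80), and the adjusted p from limma 0.00171. Of its exon bases, 2.37% are shared with the antisense gene *BX470102.3*, which had 16 reads over all libraries.

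*S100A14*, found mainly in epithelial cells, was at 1.10, 0.834 and 0.992 RPKM in the HGC27-FN1 3′-UTR cells and at 0.14, 0.102 and 0.106 RPKM in control cells. The control values rest on 4, 4 and 5 reads, and those of the other group on 23, 26 and 37. The ratio of means was 8.42 and the log2 fold change 2.31 (95% confidence interval 1.93 to 2.70, adjusted p = 0.00109 from limma). Because the pseudocount is close to the control level, the estimate moved with it, from 0.82 with a pseudocount of 1 to 2.97 with 0.01. Voom on the recovered reads gave 2.96, and the gene passed the adjusted threshold in all 3.

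*S100A2*, abundant in the basal layer of stratified epithelia, was at 1.76, 1.91 and 1.97 RPKM in the HGC27-FN1 3′-UTR cells and at 0.914, 0.828 and 1.14 RPKM in control cells. The groups did not overlap, with control replicate 3 the nearest to the other group. The log2 fold change was 0.91 (SE 0.12, limma adjusted p = 0.00848). *S100A16*, a broadly expressed member, was at 5.07, 5.27 and 5.999 RPKM against 3.42, 3.43 and 3.25 RPKM, a log2 fold change of 0.67 (SE 0.072, limma adjusted p = 0.00423).

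*S100A3*, known from the hair cuticle and able to bind zinc as well as calcium, was at 0.704, 1.03 and 0.753 RPKM in the HGC27-FN1 3′-UTR cells and at 0.188, 0.442 and 0.339 RPKM in control cells. Only 56 and 29 reads in all lay behind the groups, and the control libraries differed among themselves, relative to their mean, by more than for any other tested member. The log2 fold change was 1.17 (SE 0.27, limma adjusted p = 0.0379). With any 1 of the 6 libraries left out it stayed between 0.91 and 1.37, but the adjusted p from limma rose to between 0.0531 and 0.107.

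*S100A13*, which takes part in the release of the leaderless growth factor FGF1 and of interleukin-1α, was at 34.8, 34.35 and 36.6 RPKM in the HGC27-FN1 3′-UTR cells and at 32.35, 33.3 and 32.5 RPKM in control cells. The groups did not overlap, yet the gap between them was smaller than the spread of the HGC27-FN1 3′-UTR libraries. The log2 fold change was 0.11, with a 95% confidence interval of 0.027 to 0.19 before adjustment. With median-ratio scaling it was 0.14 and passed, at an adjusted p of 0.0378 from limma. Its row is also the one with the most shared sequence, since 24.2% of its exon bases lie in exons of *RP1-178F15.5* on the same strand and 10.6% in *S100A1* exons on the other strand, and the strand setting of the counting is not given in the sources used here.

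**Figure D2:**
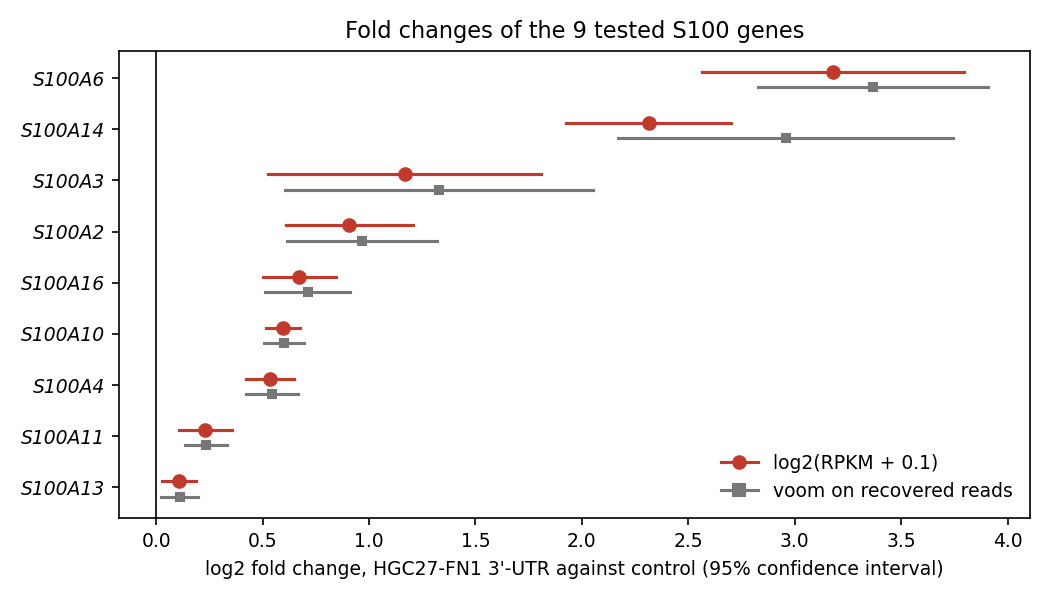
Log2 fold changes of the 9 tested S100 genes between HGC27-FN1 3′-UTR and control cells (n = 3 each) with 95% confidence intervals, from limma on log2(RPKM + 0.1) and from voom on the recovered reads. All intervals lie to the right of 0, from 0.11 for S100A13 to 3.18 for S100A6 on log2(RPKM + 0.1), and the estimates differ most for S100A14, at 2.31 and 2.96.

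The order of the genes by RPKM, which allows for gene length, changed in few places. In control cells it was *S100A11*, *S100A13*, *S100A10*, *S100A4*, *S100A16*, *S100A2* and *S100A6*, *S100A3*, *S100A14* and *S100P*, where the ranges of *S100A2* and *S100A6* overlapped. In HGC27-FN1 3′-UTR cells *S100A10* stood above *S100A13*, and *S100A6* stood above both *S100A16* and *S100A2*, while *S100A14* and *S100A3* had overlapping ranges. The levels of the 10 genes summed to 263.6 ± 4.44 RPKM in the HGC27-FN1 3′-UTR cells and 204 ± 7.10 RPKM in control cells (SD, n = 3 each). *S100A11* alone made up 50.1% to 53.3% of that sum in the first group and 55.1% to 59.0% in the second.

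Of the other S100 genes, 7 had a row and 2 were tested. *S100A5*, which lies next to *S100A6*, was at 1.48, 1.41 and 1.57 RPKM in the HGC27-FN1 3′-UTR cells and 0.857, 0.952 and 0.827 RPKM in control cells. It rose by 0.70 on the log2 scale (SE 0.09, limma adjusted p = 0.00735), on 82 and 62 reads. *S100A1* had 0.89 and 0.884 RPKM and an adjusted p of 0.992 from limma. *S100A9*, a calprotectin subunit gene, *S100B*, a glial marker, *S100A12* and *S100Z* had 0 reads in all libraries, and *S100A7A* had 1 read.

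Genes beside the S100 genes were compared to see whether the stretch of chromosome moved as a whole. Within 200 kb of a member, 27 other genes were tested, 20 of them on chromosome 1 and 7 on chromosome 4. Of these, 2 were higher and 4 lower by limma with an adjusted p under 0.05, beside 5.62% and 7.36% of all genes, and their median log2 fold change was 0.00. Beyond *S100A5*, the other higher gene was *ILF2*, at 0.13. *NPR1*, a natriuretic peptide receptor, fell by 0.55 on the log2 scale (0.385 against 0.611 RPKM, adjusted p = 0.0441 from limma), and the lower genes *TDRKH*, *INTS3* and *GATAD2B* had log2 fold changes of -0.21, -0.15 and -0.26. With any 1 library taken out, at most 1 neighbour was lower, and 1 was higher unless that library was HGC27-FN1 3′-UTR replicate 2. Lower calls over all genes also fell in those fits, from 1715 to at most 1015. *S100A5* was the single tested non-member wholly within the 96.8 kb that hold the 7 genes. Across the edges of that stretch lie *S100A1*, at a log2 fold change of 0.00 (95% confidence interval -0.36 to 0.37), *RP1-178F15.5*, at 0.12, and *BX470102.3*, at -0.53 on 16 reads, none of which passed. The tested genes nearest to *S100P*, *AC093323.3* and *MRFAP1L1*, had log2 fold changes of 0.01 and -0.08, with adjusted p of 0.895 and 0.282 from limma.

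**Figure D3:**
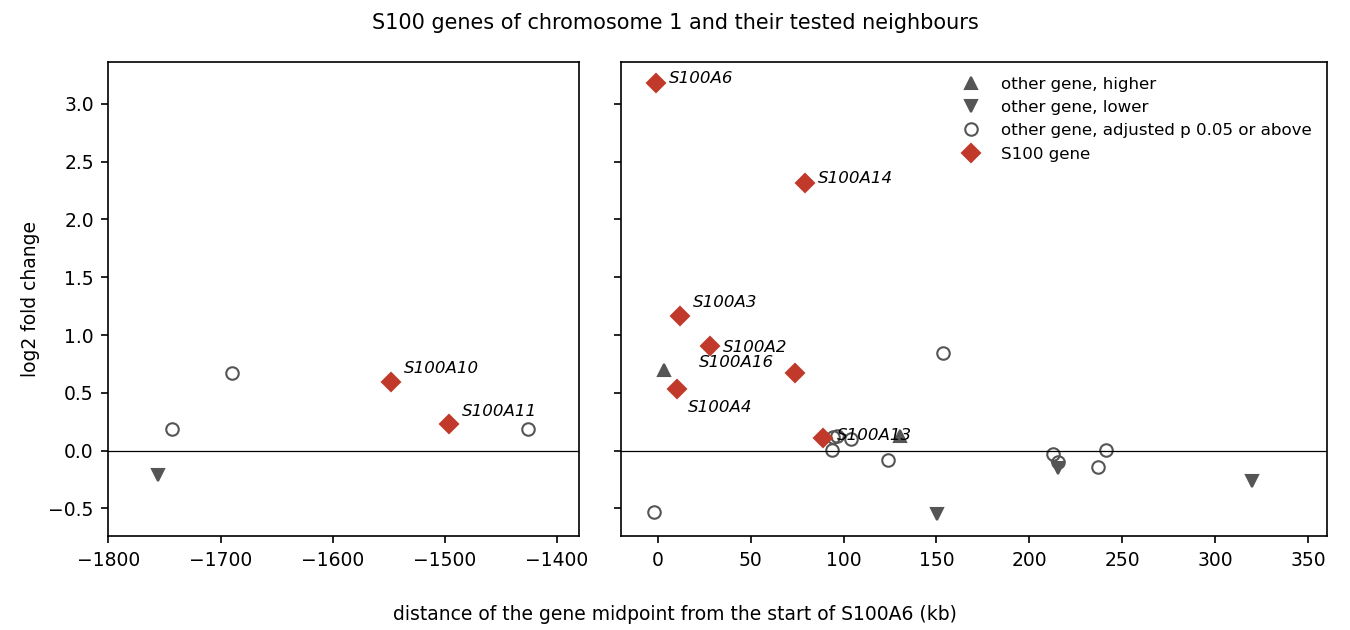
Log2 fold changes of the S100 genes of chromosome 1 (diamonds) and of other tested genes within 200 kb (circles and triangles, filled where the adjusted p was under 0.05), against the distance in kb of the gene's midpoint from the start of S100A6. The left panel holds S100A10 and S100A11 and the right panel the other 7 genes, and the 20 neighbours scatter around 0 with a median of 0.00.

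S100 proteins act through the proteins they bind, so 25 genes of known partners and receptors were examined, of which 19 were tested. There were 5 higher and 2 lower genes among them by limma with an adjusted p under 0.05, with a median log2 fold change of 0.04, where 5.62% of all genes were higher and 7.36% lower. Without control replicate 2 the higher partners numbered 3, and higher calls over all genes fell from 1310 to 501. Annexins, the calcium-dependent membrane-binding proteins that S100 dimers join, accounted for 3 of the 5. *ANXA1*, the partner of *S100A11*, was at 68.6, 62.9 and 63.2 RPKM in the HGC27-FN1 3′-UTR cells and at 33.35, 33.7 and 37.5 RPKM in control cells. Its log2 fold change was 0.90 (SE 0.058, limma adjusted p = 9.1e-04).

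*ANXA2*, the partner of *S100A10*, was at 62.8, 60.02 and 59.5 RPKM in the HGC27-FN1 3′-UTR cells and at 39.1, 39.4 and 44.9 RPKM in control cells. The groups did not overlap, and the log2 fold change was 0.56 (SE 0.06, limma adjusted p = 0.00411), beside 0.60 for *S100A10*. *ANXA5* rose less, by 0.25 (adjusted p = 0.0148 from limma), and the other 4 tested annexins did not pass. Of the remaining partners, *EZR*, the ezrin gene, rose by 0.26 (150.8 ± 4.04 against 126.2 ± 3.66 RPKM, SD, n = 3 each, adjusted p = 0.00808 from limma). *PPFIBP1*, encoding the *S100A4* partner liprin β1, rose by 0.30 (adjusted p = 0.0136 from limma).

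The lower partners were *S100PBP*, which encodes a binding protein of S100P, and *CTSB*, the protease cathepsin B. *S100PBP* fell by 0.31 on the log2 scale (adjusted p = 0.0368) and *CTSB* fell by 0.24 (adjusted p = 0.0407, both from limma). Neither call held when any 1 of the 6 libraries was left out, where lower calls over all genes also fell, from 1715 to at most 1015. *CACYBP*, the partner of *S100A6*, had a log2 fold change of -0.04 (95% confidence interval -0.11 to 0.021), and *MYH9*, the myosin partner of *S100A4*, -0.02 (-0.096 to 0.049). *AGER*, the gene of RAGE, was at 2.24 and 2.63 RPKM with an adjusted p of 0.199 from limma. *TLR4*, *TRPV5*, *TRPV6*, *FGF1*, *IL1A* and *PLAT* were too low to test.

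**Figure D4:**
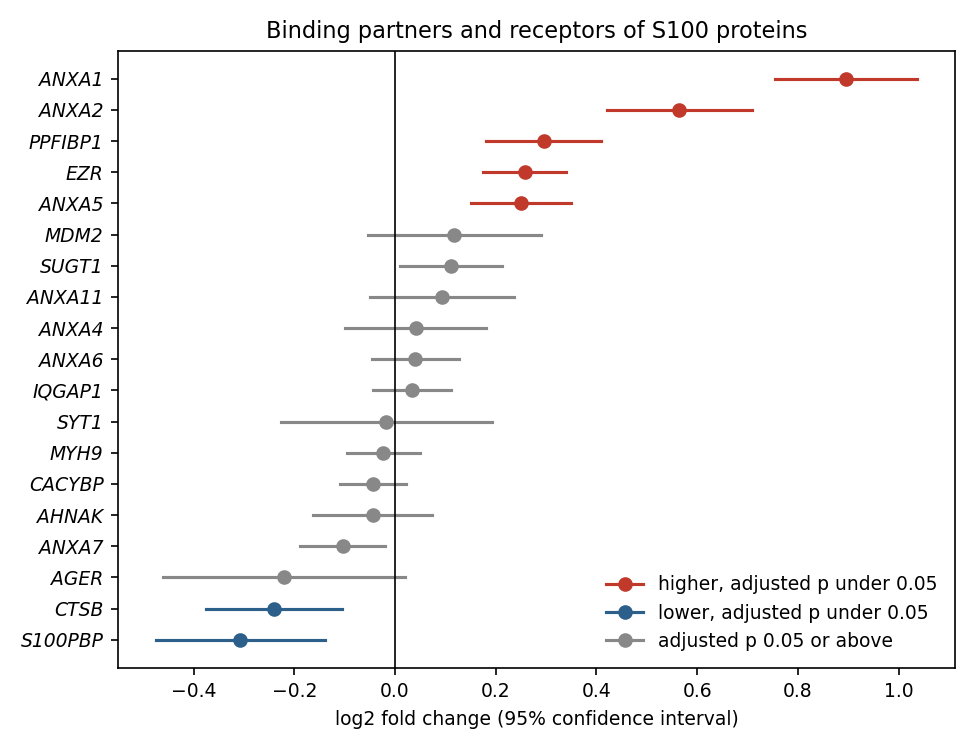
Log2 fold changes of the 19 tested partners and receptors of S100 proteins between HGC27-FN1 3′-UTR and control cells (n = 3 each), with 95% confidence intervals and colours for the adjusted p from limma. ANXA1 at 0.90 and ANXA2 at 0.56 lie furthest to the right, and most other genes lie near 0.

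Other genes with EF-hands gave a measure of whether calcium-binding proteins moved in general. Of 21 tested, 6 were higher and 0 lower by limma with an adjusted p under 0.05, with a median log2 fold change of 0.09, where 5.62% of all genes were higher and 7.36% lower. By unadjusted p under 0.05 there were 7 higher and 1 lower, against 12% and 17.6% of all genes. Voom called 6 higher and 0 lower, against 8.76% and 13.2%. The largest changes were those of the regulatory light chains of myosin. *MYL9* rose by 0.69 (31.8 against 19.7 RPKM, adjusted p = 0.00108), *MYL12A* by 0.47 (53.4 against 38.5 RPKM, adjusted p = 0.00203) and *MYL12B* by 0.38 (152.2 against 117.1 RPKM, adjusted p = 0.0108), all from limma.

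Epithelial genes differed between the same groups. The 10 gastric epithelial markers summed to 24.2 to 34.9 RPKM in HGC27-FN1 3′-UTR libraries and 2.93 to 3.23 RPKM in control libraries. All 7 markers that were tested, *EPCAM*, *CDH1*, *KRT8*, *KRT18*, *KRT19*, *LYZ* and *CTSE*, were higher by limma with an adjusted p under 0.05. Over all tested genes, 5.62% were higher by that test. *CLDN18*, *TFF1* and *MUC5AC* were too low to test. *KRT8* was the largest part of the sum, with group means of 12.2 and 2.15 RPKM. *S100A6* and *S100A14* were highest in the same 3 libraries as the marker sum. This follows from the group differences already given, and 14.3% of all tested genes were highest in those 3 libraries. Within that group the library with the highest sum, replicate 3, also had the most *S100A6* but not the most *S100A14*, a comparison of only 3 libraries. The part of these markers in the S100 values was not tested. In bulk libraries, more cells of a kind and more RNA per cell cannot be told apart.

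The sums of markers of other cell types differed less. The 7 mesenchymal and fibroblast markers summed to 459.3 to 488.6 RPKM in HGC27-FN1 3′-UTR libraries and 402.2 to 458 RPKM in control libraries. Most of these sums was *VIM*, with group means of 304 and 303 RPKM. By limma with an adjusted p under 0.05, 3 of the 7 were higher and 0 lower, beside 5.62% and 7.36% of all genes. The higher genes were *LUM*, *COL1A1* and *COL3A1*, with log2 fold changes of 0.98, 0.55 and 0.44. *PDGFRA* went the other way, at -0.21 (limma adjusted p = 0.117), with all 3 HGC27-FN1 3′-UTR libraries below all 3 control libraries. Voom on the recovered reads called 4 of the 7 higher and 1, *PDGFRA*, lower (adjusted p = 0.0257 from voom), against 8.76% and 13.2% of all genes. The 4 keratinocyte markers summed to 12.2 to 14.1 and 12.2 to 13.3 RPKM, and the 3 leukocyte markers to 1.88 to 2.25 and 2.17 to 2.42 RPKM. In each of these lists 1 gene was high enough to test, *KRT10* and *CD68*, and neither passed (adjusted p of 0.985 and 0.318 from limma). The untested *KRT14* had 9 reads in HGC27-FN1 3′-UTR cells and 1 in control cells.

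**Figure D5:**
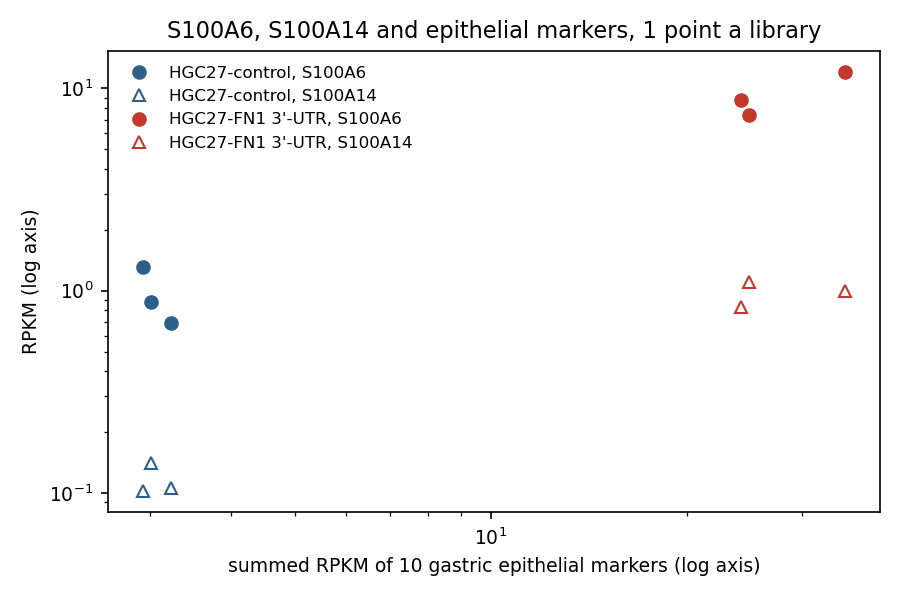
RPKM of S100A6 (circles) and S100A14 (triangles) against the summed RPKM of 10 gastric epithelial markers, 1 point a library, both axes logarithmic. The control libraries sit at a sum near 3 and the HGC27-FN1 3′-UTR libraries at 24.2 to 34.9. The points form a low and a high group with nothing between, which follows from the group differences of the genes drawn.

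The genes whose log2(RPKM + 0.1) most resembled that of *S100A6* over the 6 libraries were taken from 14651 genes with a mean of at least 1 RPKM. The highest Pearson correlations were those of *CTSE*, the gastric protease cathepsin E (0.997, 2.46 against 0.0748 RPKM), *RP11-521C20.3* (0.995, 1.44 against 0.893 RPKM) and *S100A5* (0.995). With 6 points in 2 separate groups such values mainly record the group difference, and 13 genes exceeded 0.99.

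The study asks about miRNAs around the overexpressed 3′-UTR, so the seeds of some that it examined were searched for in the 3′-UTRs of the S100 genes. Mature sequences from RefSeq are printed with the seed, bases 2 to 8, in capitals, and no seed is shared between them.
let-7i-5p: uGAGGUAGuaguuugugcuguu
miR-629-5p: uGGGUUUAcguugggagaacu
miR-423-5p: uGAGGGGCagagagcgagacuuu
miR-296-3p: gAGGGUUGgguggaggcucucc

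The 3′-UTRs of the 10 genes in GENCODE release 29 are 96 to 648 bases long, against a median of 873 bases over 13665 genes. The 7-base matches to the seeds of let-7i-5p (CTACCTC), miR-629-5p (TAAACCC) and miR-296-3p (CAACCCT) were in none of the 10, and in 1.91%, 1.55% and 2.4% of all 3′-UTRs of at most 648 bases. The match to miR-423-5p (GCCCCTC) was in 1 gene, *S100A16*, and in 5.55% of those 3′-UTRs. *S100A16* holds it at positions 224 and 461 of its 3′-UTR, at chr1:153607295-153607319 and chr1:153607058-153607082 on the reverse strand of GRCh38, shown with the match in capitals.
S100A16 position 224: gcccttgggGCCCCTCtgtgagatc
S100A16 position 461: tttcccttaGCCCCTCtgctgggta

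*S100A6*, with a 3′-UTR of 97 bases, and *S100A14*, with 630 bases, hold none of these matches. *S100A16*, with 2, had a log2 fold change of 0.67, the median of the tested members. At the shares given above, few matches are to be looked for in any list of short 3′-UTRs of this size. The part of these miRNAs in the S100 values was not tested. A match of letters does not show that a miRNA binds there, and no match speaks only of these letters.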

How the data were processed

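The authors prepared strand-specific mRNA libraries (KC-Digital kit) of HGC27 cells and deposited RPKM per gene, 1 table a library. The submitters' processing notes name Trimmomatic 0.36, STAR 2.5.3a, featureCounts of Subread 1.5.1 and GRCh38. The annotation release, strand setting and duplicate handling are not given in the sources used here. Reads were recovered from RPKM, with 100% of values above 0 within 0.01 of a whole read. In every pair of libraries of a group, reads differed by more than sampling noise.

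Groups came from the labels. All 6 libraries were fitted together with limma 3.58.1 (R 4.3.3) on log2(RPKM + 0.1), over genes with at least 0.1 RPKM in 3 or more libraries, with a trend in the prior variance and Benjamini-Hochberg adjustment over all of them. Fold changes on this scale understate those of low genes. All 9 tested S100 genes had at least 0.1 RPKM in all 6 libraries. An exact permutation test of 3 against 3 cannot go below 0.1. Alternatives were pseudocounts of 1 and 0.01, no filter, a minimum of 1 RPKM, median-ratio scaling, voom on recovered reads, the replicate number as a block and each library left out. Fits were tested on simulated data.

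The members and lists were chosen with earlier results of these data known. Named were all members, other S100 genes, partners at an adjusted p under 0.05, the 3 other EF-hand genes with the largest such changes, neighbours with such a change above 0.5, the immediate neighbours of *S100P*, and the 3 genes most like *S100A6*. Further partners, neighbours and markers were named after their values were seen. The miRNAs and TATAA were added after the sequences were seen. Promoter windows and miRNAs are from RefSeq (GRCh38.p14), and 3′-UTRs from GENCODE 29. One further partner was taken off the list and is not reported here.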

Additional observations from a re-analysis of the deposited data

How the results depend on the processing

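*S100A2*, *S100A4*, *S100A6*, *S100A10*, *S100A14* and *S100A16* kept their direction and an adjusted p under 0.05 in every alternative that tested them, and the log2 fold change of *S100A6* ranged from 2.40 with a pseudocount of 1 to 3.40. *S100A3* and *S100A11* lost the threshold without a filter (adjusted p = 0.0684 and 0.0577 from limma), and no member reversed. Members at the DEG criteria numbered 1 with a pseudocount of 1 and 1 with a minimum of 1 RPKM, which left 7 members tested. Leaving out 1 library at a time gave 6 to 7 higher members, 0 lower members, 2 to 4 at the DEG criteria, 3 to 5 higher and 0 lower partners, and 1 to 2 higher and 0 to 1 lower neighbours. Over all genes, those fits called 501 to 927 higher and 470 to 1015 lower, fewer than the 1310 and 1715 of the main fit. Without a filter, 1067 of 36521 genes were higher and 1296 lower. The lower partners numbered 1 with median-ratio scaling and 0 without a filter, the higher neighbours 5 and 1, and the lower neighbours 2 and 2. Median-ratio scaling called 1696 genes higher and 1330 lower, or 56% of calls higher, against 1310 and 1715, or 43.3%, and moved the median of all genes from -0.04 to 0.00. With the replicate number as a block, 7 members were higher, with *S100A11* at an adjusted p of 0.0685 from limma, and 3 partners were higher and 1 lower, 1 neighbour higher and 0 lower. Over all genes, the fit with the block called 564 higher and 598 lower. The labels do not say whether equal replicate numbers pair the samples. The correlations of same-numbered deviations were near 0, at 0.0024, 0.021 and 0.010. Each HGC27-FN1 3′-UTR library correlated best with the control library of its own number. Control replicate 1, however, correlated better with HGC27-FN1 3′-UTR replicate 3 (0.0084) than with replicate 1 (0.0024). These values do not settle the pairing. The cause of these shifts was not tested. Depth limits *S100P*, *S100A3* and *S100A14* most, and intervals on their reads cover counting error only.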
